A study of Mus musculus with 12 samples.

Results

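The circadian clock genes *Arntl*, *Npas2*, *Per1*, *Per2*, *Per3*, *Cry1*, *Nr1d1*, *Nr1d2*, *Dbp* and *Ciart* were read from mouse liver RNA-seq counts. They were chosen by name, as core clock genes and clock output genes, and are 10 of the 54232 genes in the count table. All 10 were among the 17509 genes tested, which are those where 6 or more livers held over 2 reads. The livers came from 6 WT and 6 LKO male mice on a C57Bl/6J background, with 1 library per mouse. WT mice were *Marchf6* fl/fl AlbuminCre- and LKO mice were *Marchf6* fl/fl AlbuminCre+, so both genotypes carried the floxed *Marchf6* alleles. The LKO mice also carried Cre under the albumin promoter, which drives it in hepatocytes. *Marchf6* encodes a ubiquitin ligase of the endoplasmic reticulum. All mice were 10 weeks old, ate standard chow, lived under a 12 h light/dark cycle and, by the study's general methods, were fasted for 4 h before they were killed. The question put to the clock genes was whether they differed between genotypes, and whether the livers differed among themselves in clock state. The hour at which each liver was collected is not given in the sources used here.

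The mammalian clock is a transcriptional loop that runs in nearly every cell, and in liver it times the transcription of many metabolic genes over the day. BMAL1, the product of *Arntl*, pairs with CLOCK or with NPAS2 and activates genes through E-boxes, among them the *Per* and *Cry* genes, whose products in turn repress that activity, and *Nr1d1*, *Nr1d2*, *Dbp* and *Ciart*. REV-ERB alpha and beta, the products of *Nr1d1* and *Nr1d2*, repress *Arntl* and *Npas2* through ROR elements, DBP activates genes through D-boxes, and *Arntl* therefore peaks in liver at about the opposite time of day to *Nr1d1* and *Dbp*.

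Stretches that hold the DNA elements of this loop are shown because the results turn on genes of its opposite arms. RefSeq start windows (250 bases before to 50 after a start, GRCm38.p6) were found for 9 of the 10 genes, as 11 windows. Each window was searched on both strands for the E-box CACGTG, for the D-box as TTATGTAA or TTACGTAA, and for the ROR element as ANTAGGTCA, TNTAGGTCA, ANTGGGTCA or TNTGGGTCA. None of these letter strings overlaps another in the stretches below, where capitals mark the matches. Positions are counted from the RefSeq start, with negative numbers upstream of it.
Ciart, chr3:95882255-95882356, minus strand, with E-boxes beginning at -116, -58 and -44, upstream of the gene and outside annotated exons: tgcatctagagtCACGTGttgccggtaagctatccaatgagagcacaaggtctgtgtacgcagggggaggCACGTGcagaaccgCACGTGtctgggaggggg
Per3, chr4:151044804-151044882, minus strand, with D-boxes beginning at -205 and -158, upstream of the gene and outside annotated exons: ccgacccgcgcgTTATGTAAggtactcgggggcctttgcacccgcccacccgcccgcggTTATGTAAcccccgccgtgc
Cry1, chr10:85185097-85185126, minus strand, with an E-box beginning at -60, upstream of the gene and outside annotated exons: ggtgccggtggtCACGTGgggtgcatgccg
Per1, chr11:69098771-69098800, plus strand, with an E-box beginning at -166, outside annotated exons but inside the span of the gene, whose annotated start lies further upstream: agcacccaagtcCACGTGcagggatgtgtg
Arntl, chr7:113207529-113207557, plus strand, with a ROR element beginning at 29 downstream of the second of its 2 RefSeq starts, inside an exon: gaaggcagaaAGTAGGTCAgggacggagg
An E-box was present in 3 of these 11 windows, against 7.15% of all 32851 RefSeq windows. A D-box was present in 1 of the 11, against 1.06% of all windows, and a ROR element in 1, against 3.2%. These matches describe letters in a window. They do not locate a bound site, and a window without a match says nothing about binding elsewhere in a gene.

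Total counts ranged from 14860414 to 22111926 reads per liver, from 14860414 to 19013181 in WT and from 15242214 to 22111926 in LKO. Values are given as CPM, reads scaled to a common library total and normalised by TMM, a scaling that equalises the bulk of genes between libraries. *Alb*, the albumin gene, was at 64599 to 88601 CPM, and all 8 hepatocyte markers were tested. The deletion removes an exon of *Marchf6* and reads are counted over the whole gene, so the *Marchf6* count does not check the labels: it was 226 to 247 CPM in WT and 204 to 249 CPM in LKO (log2 fold change -0.09, SE 0.0602, edgeR adjusted p = 0.585). In bulk tissue, fewer cells of a type and less RNA per cell cannot be told apart. All 7 Kupffer cell markers were higher in LKO, with a summed level of 99.7 to 128.6 CPM in WT and 125.0 to 215 CPM in LKO. None of the 7 passed the edgeR adjusted p of 0.05, 6 had an unadjusted p under 0.05, limma voom called 0 and DESeq2 called 3. Over all genes tested, 11.7% had an unadjusted edgeR p under 0.05, and DESeq2 called 2.17% of those to which it gave an adjusted p. All 4 B cell markers were also higher in LKO, and their summed level of 1.26 to 2.19 CPM lay above the 0.647 to 1.21 CPM of WT. Their edgeR fits had 0 adjusted and 3 unadjusted p under 0.05, and limma voom and DESeq2 called 0. The part of these markers in the clock gene values was not tested.

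Replicates 1 and 2 of both genotypes stood apart from the other 8 livers in clock gene expression. These 4 livers were the 4 highest of 12 for *Arntl* and *Npas2* and the 4 lowest of 12 for *Per3*, *Nr1d2*, *Dbp* and *Ciart*. Among all 17509 genes tested they were the 4 lowest livers for 345 genes (1.97%) and the 4 highest for 312 genes (1.78%). These livers were picked out after the values of the clock genes were seen. They are therefore described by ranks and ranges, with no test between them and the other 8, and each genotype comparison is given with and without them. Their total counts of 15010760 to 20722320 lay within those of the other 8 livers.

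**Figure D1:**
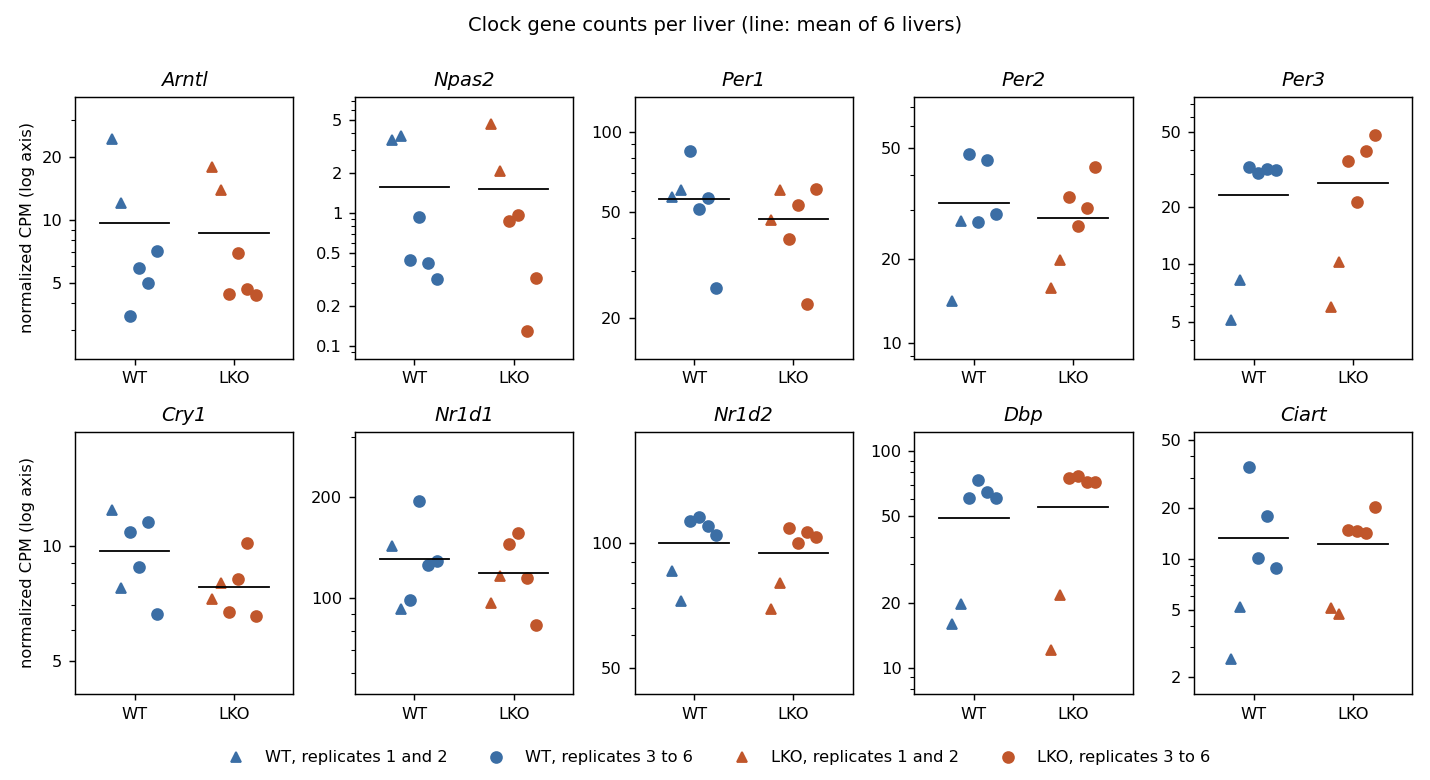
Level of the 10 clock genes in each of the 12 livers, as TMM-normalised CPM on a log axis, with WT in blue, LKO in orange, triangles for replicates 1 and 2, circles for replicates 3 to 6 and a line at the mean of 6 livers. The 4 triangles lie at the top for *Arntl* and *Npas2* and at the bottom for *Per3*, *Nr1d2*, *Dbp* and *Ciart*, in both genotypes.

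Of the activator genes, *Arntl* and *Npas2* were highest in the 4 livers, while *Clock*, given below, overlapped between the sets. *Arntl* (ENSMUSG00000055116, chr7:113207465-113314126, plus strand), the gene of BMAL1, was at 3.49 to 24.2 CPM in WT with a median of 6.50, and at 4.38 to 17.9 CPM in LKO with a median of 5.82. WT replicates 1 and 2 were at 24.2 and 12.1 CPM and LKO replicates 1 and 2 at 17.9 and 13.9 CPM, while the other 8 livers lay between 3.49 and 7.08 CPM and the genotypes overlapped. *Npas2* (ENSMUSG00000026077, chr1:39193731-39363236, plus strand), the gene of a CLOCK paralogue that also pairs with BMAL1, was at 0.322 to 3.82 CPM in WT with a median of 0.693, and at 0.129 to 4.70 CPM in LKO with a median of 0.917. The 4 livers held 2.08 to 4.70 CPM and the other 8 held 0.129 to 0.968 CPM. *Npas2* had the widest range of the 10 genes, with a highest value 36.4 times the lowest, but its counts were low, from 3 to 101 reads.

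The period genes did not all share that order. *Per3* (ENSMUSG00000028957, chr4:151003652-151044665, minus strand), a period paralogue, was at 5.11 to 32.6 CPM in WT with a median of 30.8, and at 5.95 to 47.7 CPM in LKO with a median of 28.2. Its values in the 4 livers, 5.11 and 8.24 CPM in WT and 5.95 and 10.3 CPM in LKO, lay below the 21.3 to 47.7 CPM of the other 8. *Per2* (ENSMUSG00000055866, chr1:91415982-91459324, minus strand), a core repressor, was at 14.1 to 47.7 CPM in WT with a median of 28.2, and at 15.8 to 42.8 CPM in LKO with a median of 28.3. Here 3 of the 4 livers were the lowest, and the remaining liver, WT replicate 2 at 27.4 CPM, fell among the other 8 livers, which began at 26.3 CPM. *Per1* (ENSMUSG00000020893, chr11:69095217-69109960, plus strand), a core repressor that is also induced by light and hormones, was at 25.8 to 84.7 CPM in WT with a median of 56.8, and at 22.5 to 60.95 CPM in LKO with a median of 49.9. Its 4 livers, at 46.7 to 60.6 CPM, lay in the middle of that range, and both its extremes, WT replicate 3 and LKO replicate 5, were among the other 8.

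Of the other repressors, *Ciart* followed *Per3* and *Cry1* did not. *Ciart* (ENSMUSG00000038550, chr3:95878503-95882251, minus strand), which encodes a repressor of CLOCK and BMAL1, was at 2.56 to 34.8 CPM in WT with a median of 9.42, and at 4.69 to 20.2 CPM in LKO with a median of 14.4. The 4 livers held 2.56 to 5.18 CPM and the other 8 held 8.81 to 34.8 CPM, with WT replicate 3 above the rest. *Cry1* (ENSMUSG00000020038, chr10:85131700-85185064, minus strand), a cryptochrome that represses CLOCK and BMAL1 and peaks later than the *Per* genes, was at 6.63 to 12.4 CPM in WT with a median of 9.83, and at 6.54 to 10.2 CPM in LKO with a median of 7.61. Its 4 livers, at 7.25 to 12.4 CPM, were mixed with the other 8.

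The REV-ERB genes differed from each other. *Nr1d2* (ENSMUSG00000021775, chr14:18204054-18239127, minus strand) was at 72.5 to 115.7 CPM in WT with a median of 107.3, and at 69.4 to 108.5 CPM in LKO with a median of 101.7. The 4 livers held 69.4 to 85.6 CPM and the other 8 held 99.9 to 115.7 CPM, so the order was clear although the highest value was only 1.67 times the lowest. *Nr1d1* (ENSMUSG00000020889, chr11:98767932-98775333, minus strand) was at 92.7 to 194 CPM in WT with a median of 127 and at 83.2 to 155.7 CPM in LKO with a median of 115.5. Its 4 livers, at 92.7 to 143 CPM, were mixed with the other 8, whose range of 83.2 to 194 CPM enclosed them.

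*Dbp* (ENSMUSG00000059824, chr7:45705088-45710203, plus strand), a PAR bZIP activator and direct output of the clock, gave the clearest separation. It was at 16.0 to 73.9 CPM in WT with a median of 60.9, and at 12.1 to 76.8 CPM in LKO with a median of 72.3. WT replicates 1 and 2 were at 16.0 and 19.7 CPM and LKO replicates 1 and 2 at 12.1 and 21.7 CPM, whereas the other 8 livers lay between 60.8 and 76.8 CPM. Exons of *Dbp* share 539 bases (18% of its exon length) with the antisense gene *Sphk2*, and those of *Nr1d1* share 263 bases (8.55%) with the antisense gene *Thra*. The strand setting of the counting is not stated, so reads in these stretches could not be told apart. *Arntl* shares 33 bases (0.439%) with the antisense gene *Gm45355*, and exons of the other 7 genes overlapped no exon of another gene.

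Between genotypes, no clock gene passed the test. None of the 10 was called by edgeR (quasi-likelihood test, adjusted p under 0.05), none had an unadjusted p under 0.05, and none was called by limma voom or by DESeq2. In all, edgeR called 75 of 17509 genes (0.428%), and 2047 genes (11.7%) had an unadjusted p under 0.05. Limma voom called 85 genes (0.485%) and DESeq2 called 351 of the 16141 genes to which it gave an adjusted p (2.17%). The 6 LKO values overlapped the 6 WT values for each of the 10 clock genes, whereas the groups did not overlap for 228 of all genes tested (1.3%). The estimated change was positive for *Per3* and *Dbp* and negative for the other 8 clock genes, with a median log2 fold change of -0.12, against 0.00015 over all genes tested.

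With genotype as the only term, the width of the interval differed between genes. *Cry1* had the lowest p, with 9.68 ± 2.29 CPM in WT and 7.81 ± 1.34 CPM in LKO (SD, n = 6 each) and a log2 fold change of -0.31 (SE 0.157, 95% interval -0.64 to 0.03, edgeR unadjusted p = 0.0700, adjusted p = 0.476). With a liver left out, its unadjusted p was 0.0396 without WT replicate 2, 0.0169 without WT replicate 6 and 0.0223 without LKO replicate 5, with log2 fold changes of -0.37, -0.39 and -0.40 and edgeR adjusted p of 0.398, 0.292 and 0.399. In the other fits with 1 liver left out, the edgeR unadjusted p of *Cry1* was above 0.05. It ranged from 0.0705 (without WT replicate 4, log2 fold change -0.33) to 0.179 (without WT replicate 1, -0.22). The intervals were also narrow for *Nr1d2* (log2 fold change -0.08, -0.36 to 0.20) and *Nr1d1* (-0.14, -0.52 to 0.25). They were wider for *Per2* (-0.18, -0.76 to 0.39) and *Per1* (-0.25, -0.79 to 0.29). For the genes with the largest gap between the 4 livers and the rest they were widest: *Arntl* -0.14 (-1.15 to 0.87), *Dbp* 0.16 (-0.81 to 1.13), *Per3* 0.20 (-0.87 to 1.27), *Ciart* -0.11 (-1.18 to 0.96) and *Npas2* -0.05 (-1.65 to 1.55). Their edgeR adjusted p ranged from 0.922 for *Per3* to 0.992 for *Npas2*.

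Without replicates 1 and 2 of both genotypes, edgeR called 25 of 16460 genes (0.152%) and none of the 10 clock genes, and 1762 genes (10.7%) had an unadjusted p under 0.05. *Dbp* was the 1 clock gene among these: its log2 fold change over the 8 livers was 0.19 (SE 0.0756, 95% interval 0.02 to 0.36, edgeR unadjusted p = 0.0294, adjusted p = 0.410). All 4 of its LKO values in this set lay between 72.1 and 76.8 CPM, and the WT values lay between 60.8 and 73.9 CPM, so the genotypes overlapped. The interval of *Arntl* narrowed to -0.56 to 0.42 around -0.07, and that of *Per3* to -0.22 to 0.60 around 0.19. For *Npas2* the estimate changed sign to 0.07, with an interval of -1.19 to 1.33.

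**Figure D2:**
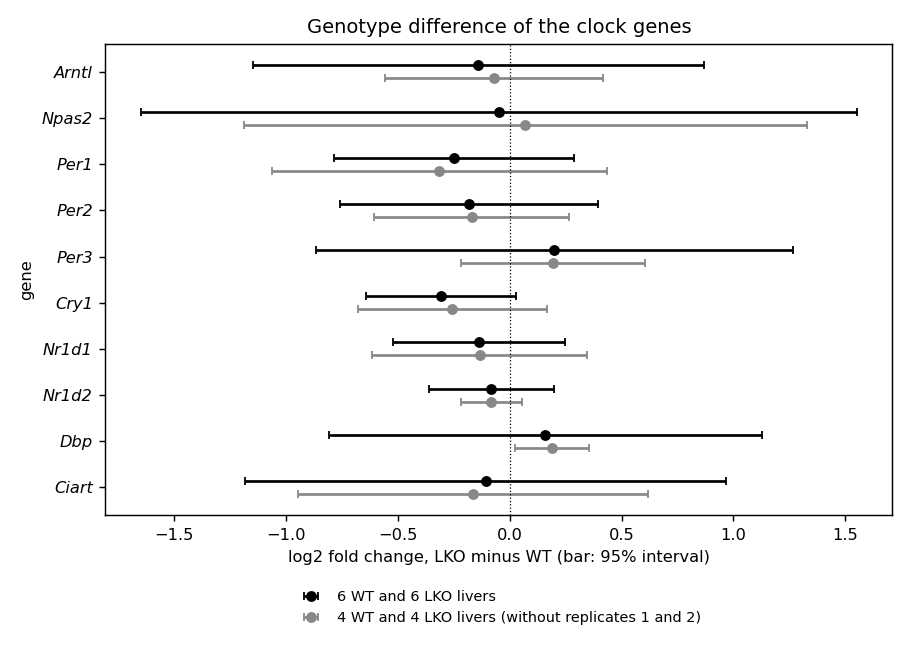
Log2 fold change of each clock gene, LKO minus WT, with its 95% interval from edgeR's quasi-likelihood fit, over all 12 livers in black and over the 8 livers without replicates 1 and 2 in grey. All black bars cross 0, and of the grey bars that of *Dbp* does not, at 0.02 to 0.36. The 8 livers were set apart by the levels of *Dbp* and other clock genes, which helped to narrow the grey bars of those genes.

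*Arntl* was set against *Dbp* and *Nr1d1* as anti-phase pairs, to read the clock state of each liver. On the log2 CPM scale (prior count 0.5), *Arntl* minus *Dbp* was 0.60 in WT replicate 1, -0.71 in WT replicate 2, 0.57 in LKO replicate 1 and -0.65 in LKO replicate 2. In the other 8 livers it lay between -4.11 and -3.10, so the gap between the sets was larger than the range within either. By genotype the difference was -2.44 ± 1.92 in WT and -2.60 ± 2.03 in LKO (SD, n = 6 each), and LKO minus WT was -0.16, well within the SD. In the 8 livers alone it was -3.63 ± 0.41 in WT and -3.88 ± 0.28 in LKO (SD, n = 4 each). *Arntl* minus *Nr1d1* was -3.07 to -2.43 in the 4 livers and -5.03 to -4.18 in the other 8. Its means were -4.03 ± 1.04 in WT and -3.97 ± 1.00 in LKO, with a difference of 0.05. Since *Nr1d1* itself did not order the livers this way, the separation in the second pair followed *Arntl*. Each genotype contributed 2 livers to one end and 4 to the other. Whether the livers were taken at different hours was not tested.

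**Figure D3:**
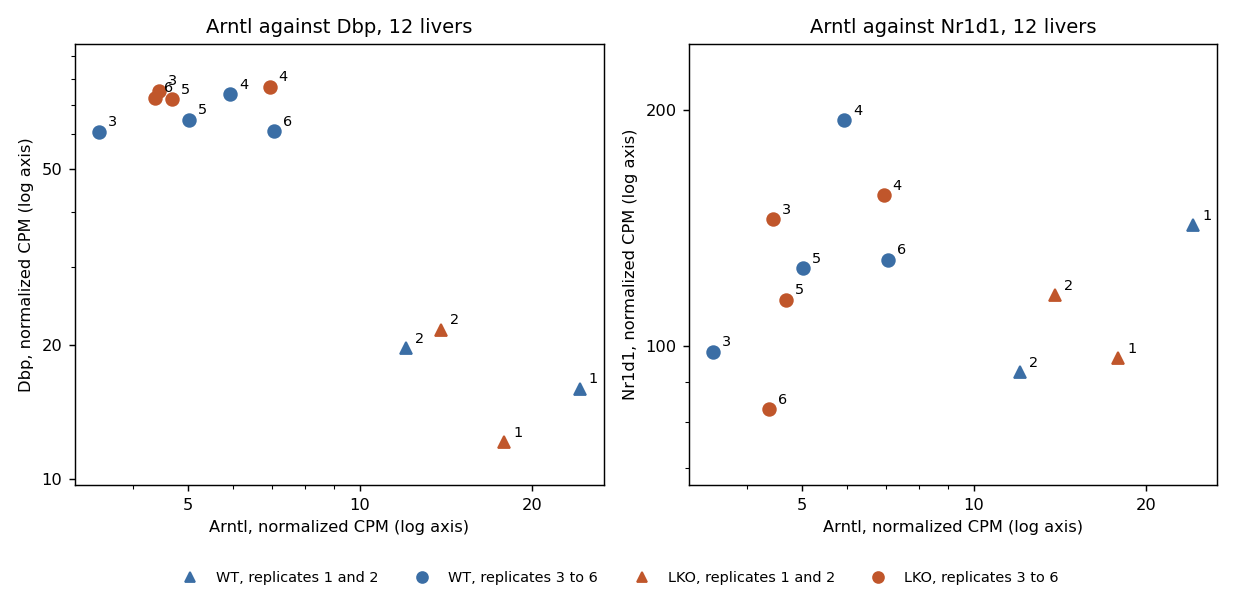
*Arntl* against *Dbp* (left) and against *Nr1d1* (right) in the 12 livers, as TMM-normalised CPM on log axes, with WT in blue, LKO in orange, triangles for replicates 1 and 2, circles for replicates 3 to 6 and the replicate number beside each point. On the left, the triangles sit at high *Arntl* (12.1 to 24.2 CPM) and low *Dbp* (12.1 to 21.7 CPM), apart from the circles. On the right, they are apart along *Arntl* only.

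The spread within a genotype was large for 5 of the 6 genes that set the 4 livers apart. The SD of log2 CPM around the genotype mean was 1.65 for *Npas2*, at percentile 99.8 of all genes tested. It was 1.20 for *Per3* (percentile 96.9), 1.12 for *Ciart* (95.5), 1.07 for *Dbp* (94.7) and 0.95 for *Arntl* (92.2). The median over the 10 clock genes was 0.76, against 0.27 over all genes tested. *Per2* at 0.58, *Per1* at 0.55, *Nr1d1* at 0.37 and *Cry1* at 0.30 were lower. *Nr1d2*, the sixth of the genes that set the 4 livers apart, had the lowest SD of the 10 at 0.27 (percentile 49.1). Within the other 8 livers the SD was 0.06 for *Nr1d2* and 0.10 for *Dbp*, values that the choice of these livers by the same genes helped to fix. It was 0.99 for *Npas2*, 0.68 for *Per1* and 0.66 for *Ciart*.

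Among the 8 livers of replicates 3 to 6, r of log2 CPM with *Arntl* was -0.832 for *Ciart*, -0.777 for *Per2*, -0.606 for *Per3*, 0.622 for *Nr1d1* and 0.173 for *Dbp*. These livers had been set apart by the levels of *Arntl*, *Dbp* and other clock genes, so the range left for the genes to vary over was fixed by that choice. The r are therefore given as a description with no test, and say nothing of whether *Arntl* and *Dbp* move in opposite directions. *Dbp* spanned 60.8 to 76.8 CPM in this set and *Arntl* 3.49 to 7.08 CPM.

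Per kilobase of exon, the clock genes covered a wide range of levels. *Nr1d1* was highest at 42.4 ± 11.9 CPM per kb in WT and 38.5 ± 9.02 in LKO (SD, n = 6 each), and lay above *Nr1d2* in 12 of 12 livers. *Nr1d2* (18.0 ± 2.99 CPM per kb over 12 livers) and *Dbp* (17.4 ± 8.80) did not differ beyond their spread over the 12 livers, but *Nr1d2* was above *Dbp* in all 4 livers of replicates 1 and 2 and in 1 of the other 8. *Per1* followed at 9.16 ± 2.98 CPM per kb. It was below *Dbp* in the 8 livers of replicates 3 to 6 and above it in the other 4. *Ciart* (5.63 ± 3.96) and *Per2* (5.11 ± 1.86) exchanged places between livers, with *Ciart* above in 0 of the 4 and 6 of the 8, and so did *Cry1* (2.62 ± 0.610) and *Per3* (2.60 ± 1.50), with *Cry1* above in 4 of the 4 and 2 of the 8. *Arntl* at 1.22 ± 0.867 CPM per kb lay below *Per3* in the 8 livers and above it in the 4, and *Npas2* at 0.322 ± 0.333 was below *Arntl* in 12 of 12.

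**Figure D4:**
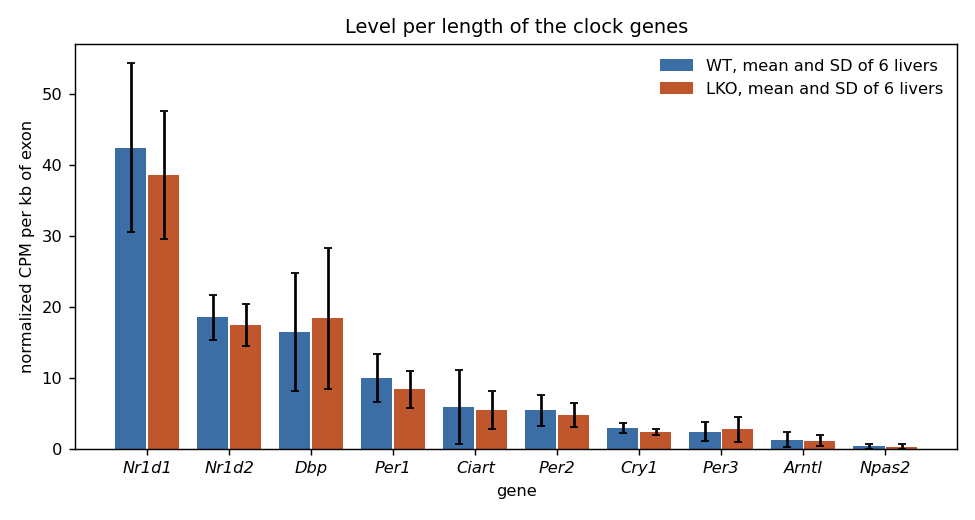
Level of the clock genes per kilobase of exon, as TMM-normalised CPM per kb on a linear axis from 0, with bars for the mean of 6 WT (blue) and 6 LKO (orange) livers and error bars for the SD. *Nr1d1* stands highest at 42.4 in WT and 38.5 in LKO, and *Npas2* lowest at 0.330 and 0.315.

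The other clock genes of a list of 16 were read in the same way. Of these, 15 were tested (*Rorb* was not), edgeR called 0, and 1 had an unadjusted p under 0.05, against 11.7% of all genes tested. Limma voom and DESeq2 also called 0, and the median log2 fold change was -0.04, with 4 genes higher and 11 lower in LKO. That 1 gene was *Bhlhe40*, which encodes the repressor DEC1, at 111.5 to 171 CPM in WT and 64.3 to 167 CPM in LKO. Its log2 fold change was -0.38 (SE 0.17, 95% interval -0.75 to -0.02, edgeR unadjusted p = 0.0398, adjusted p = 0.395). The next lowest p belonged to the kinase gene *Csnk1e* (log2 fold change 0.17), to *Timeless* (-0.16) and to *Bhlhe41* (0.43), with edgeR adjusted p of 0.646, 0.664 and 0.728.

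In this list, replicates 1 and 2 of both genotypes were the 4 lowest livers for 7 of 15 genes and the 4 highest for 1, against 1.97% and 1.78% of all genes. Among the 7 were *Cry2*, *Tef*, *Hlf*, *Bhlhe41*, *Fbxl21* and *Btrc*, and the 1 was *Nfil3*. They are named here after their values were seen. *Tef* and *Hlf*, the PAR bZIP relatives of *Dbp*, were at 82.5 to 127 CPM and 56.8 to 77.3 CPM in the 4 livers and at 192 to 237 CPM and 84.9 to 131 CPM in the other 8. *Nfil3*, which encodes a repressor that competes with DBP for D-boxes, had the opposite order, at 20.1 to 38.3 CPM in the 4 livers and 10.3 to 18.6 CPM in the other 8. *Cry2*, a cryptochrome like *Cry1*, was at 38.1 to 39.3 CPM in the 4 livers and 53.7 to 62.2 CPM in the rest. *Clock*, the partner of BMAL1, overlapped between the sets, at 74.3 to 88.0 CPM and 60.9 to 77.6 CPM, and *Rora* and *Csnk1d* were likewise mixed.

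Of 13 genes listed as rhythmic outputs in liver, edgeR, limma voom and DESeq2 called 0 between genotypes. An unadjusted edgeR p under 0.05, which 11.7% of all genes tested had, was found for 0 of the 13. The median log2 fold change was 0.06, with 7 genes higher and 6 lower in LKO. The lowest p were those of *Noct*, a gene of the deadenylase family (log2 fold change -0.72, 95% interval -1.60 to 0.16, edgeR adjusted p = 0.525), *Alas1*, the first enzyme of haem synthesis (0.52, -0.28 to 1.31, edgeR adjusted p = 0.632), *Por* (0.29) and *Wee1* (0.46). The 4 livers were the lowest for 5 of the 13, *Wee1*, *Usp2*, *Nampt*, *Cyp2a5* and *Gys2*, and the highest for 1, *Insig2*, against 1.97% and 1.78% of all genes. These genes are named here after their values were seen. *Usp2*, a deubiquitinase gene, was at 8.42 to 11.9 CPM in the 4 livers and 28.2 to 79.7 CPM in the other 8. *Wee1*, a kinase of the cell cycle, was at 1.93 to 3.72 CPM against 6.72 to 15.4 CPM, and *Gys2*, the liver glycogen synthase, at 116.1 to 171 CPM against 222 to 293 CPM. *Cyp7a1*, the rate-limiting enzyme of bile acid synthesis, had the largest SD of this list at 1.34 log2 units, but the sets overlapped, at 12.4 to 133 CPM and 46.5 to 366 CPM.

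**Figure D5:**
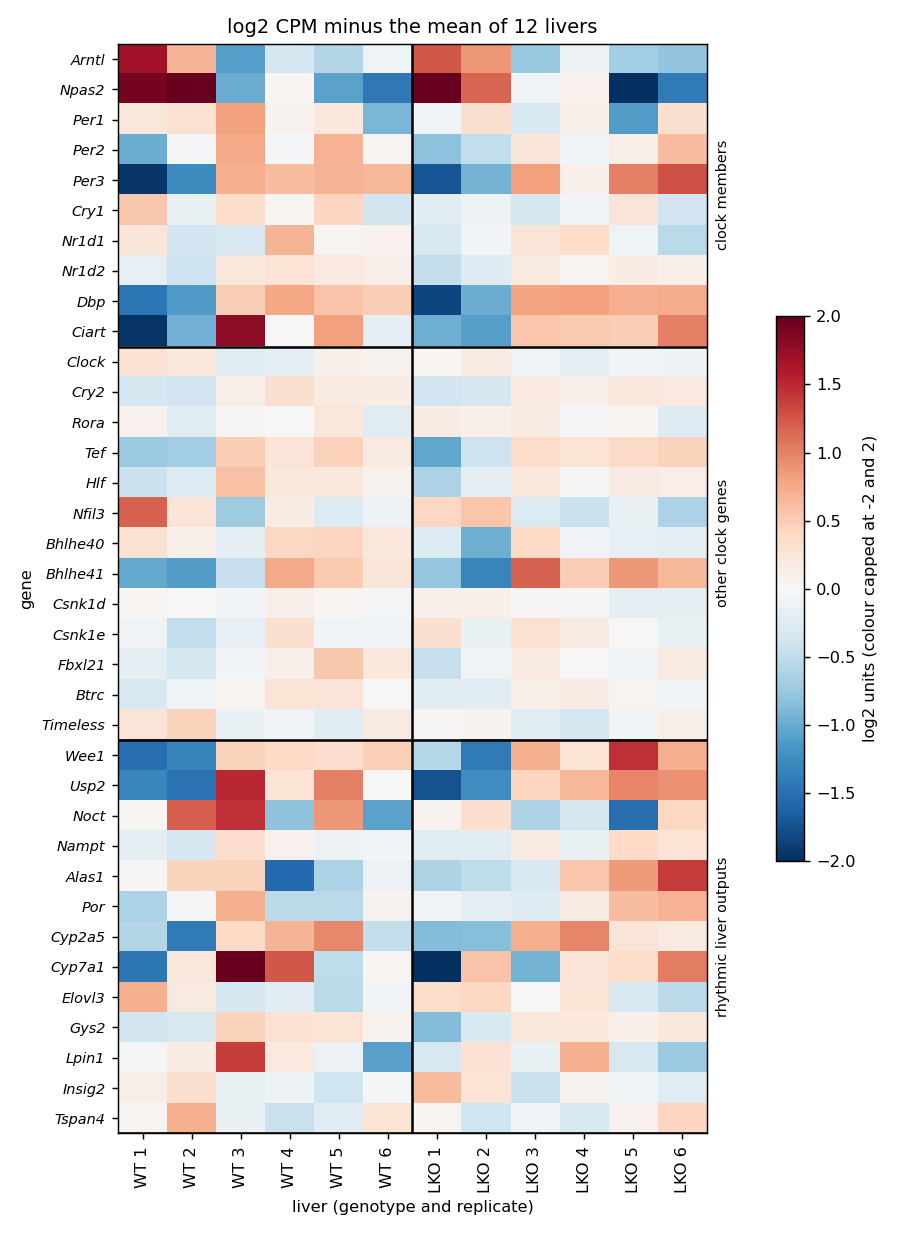
Log2 CPM of the 10 clock members, 13 other clock genes and 13 rhythmic liver outputs in each liver, each gene relative to its mean over the 12 livers (red above, blue below, colour capped at -2 and 2). Columns of replicates 1 and 2 are blue for *Per3*, *Dbp*, *Ciart*, *Tef* and *Usp2* and red for *Arntl* and *Npas2* in both genotypes.

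The genes whose pattern over the 12 livers was most like that of *Arntl* or *Dbp* were found by Pearson r of log2 CPM after the genotype means were removed, among 12815 genes with a symbol and a mean of at least 1 CPM. These r describe 12 livers that fall into separate sets, and carry no test. With *Arntl*, the highest r included those of *Slc35a1* (0.966), *Tab2* (0.949), *St5* (0.941) and *Grk5* (0.937), and r was lowest for *Rab11fip2* (-0.971), *Cc2d2a* (-0.958), *Hlf* (-0.956), *Stab2* (-0.950) and *Gm45909* (-0.945). With *Dbp*, r was highest for *Tef* (0.975), *Klf1* (0.971), *Cry2* (0.971), *Adipor1* (0.963) and *Dclk3* (0.962), and lowest for *Eif1a* (-0.965), *Lnx2* (-0.962), *Sdad1* (-0.957), *St5* (-0.955) and *Ythdf1* (-0.950). *St5* was thus high in the livers where *Arntl* was high and *Dbp* was low. None of these genes passed an edgeR adjusted p of 0.05 between genotypes. Between the clock genes themselves, r with *Arntl* was 0.846 for *Npas2*, -0.960 for *Per3*, -0.955 for *Ciart*, -0.939 for *Per2*, -0.916 for *Dbp* and -0.869 for *Nr1d2*, while it was 0.098 for *Per1*, 0.053 for *Cry1* and -0.018 for *Nr1d1*.

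The summed cell type markers overlapped between the 4 livers and the rest, although single markers moved. Hepatocyte markers summed to 99031 to 114972 CPM in the 4 livers and 91119 to 119445 CPM in the other 8, a sum that is mostly *Alb*. *Fgb*, a fibrinogen gene, was the 1 of the 8 for which the 4 livers were the highest, at 7672 to 10091 CPM against 5084 to 7493 CPM. *Tdo2*, of the same list, lay the other way with an overlap, at 1200 to 1992 CPM against 1902 to 2543 CPM. The endothelial marker *Stab2*, with its r of -0.950 to *Arntl*, was at 40.7 to 44.6 CPM in the 4 livers and 44.2 to 50.9 CPM in the rest, with an overlap. Other endothelial markers did not share that order. The ranges of *Pecam1* (15.95 to 19.2 CPM against 12.7 to 17.8 CPM), *Lyve1* and *Cdh5* were higher in the 4 livers, also with an overlap. Those of *Clec4g* and *Kdr* lay inside the range of the rest. These single markers are named after their values were seen, and their part in the clock pattern was not tested. Kupffer cell markers summed to 99.7 to 165 CPM and 117 to 215 CPM, endothelial markers to 144 to 175 CPM and 129.6 to 168 CPM, and stellate cell markers to 156 to 219.6 CPM and 138 to 234 CPM. B cell markers (0.647 to 1.54 and 0.708 to 2.19 CPM), T cell markers (0.207 to 0.603 and 0.314 to 0.825 CPM) and cholangiocyte markers (7.41 to 19.3 and 7.69 to 17.8 CPM) also overlapped. Between genotypes, edgeR called 0 and had 2, 1, 1, 0 and 1 unadjusted p under 0.05 among 8 hepatocyte, 6 endothelial, 6 stellate, 2 T cell and 4 cholangiocyte markers, *Cd3d* of the T cell list being too low to test. Limma voom called 0 of them, and DESeq2 called 1 endothelial marker. For comparison, 11.7% of all genes tested had an unadjusted edgeR p under 0.05. DESeq2 called 2.17% of the genes to which it gave an adjusted p.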

How the data were processed

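Poly(A) RNA of 12 livers was sequenced as KAPA mRNA HyperPrep libraries. The authors deposited raw counts of reads per Ensembl gene, without normalisation or filter. They used FastQC 0.11.15, Picard, Trimmomatic 0.36, HISAT2 2.1.0 on GRCm38.p6 (Ensembl 93) and HTSeq 0.6.1. No molecular identifiers are described, so reads copied from 1 molecule could not be told from reads of separate molecules. Symbols came from GENCODE M21, which named 54079 of 54232 identifiers. Groups follow the genotype in the labels, with 6 livers each.

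Kept were the 17509 genes for which 6 or more livers held over 2 reads. The model of edgeR 4.0.16 (R 4.3.3) used TMM scaling and genotype alone, and p-values of its quasi-likelihood test were adjusted after Benjamini and Hochberg over these genes. The test was first run on simulated data. Each p judges the genotype difference against the spread between livers of separate mice. The clock genes and the lists of other genes were chosen with earlier results of these data known. The text names all 10 clock genes, the genes of each list with the lowest p (up to 4), the 5 genes most and 5 least like *Arntl* and *Dbp*, and *Marchf6*. A few genes that this rule or a list includes are not reported here. Others named by liver rank were chosen after their values were seen.

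Alternatives were limma voom (limma 3.58.1, the study's own test), DESeq2 1.42.0, RLE scaling, other filters, a prior count of 2, scaling without the 20 most abundant genes, the replicate number as a block, and each liver left out. Leaving out replicates 1 and 2 of both genotypes was added after the data were seen. Tests of correlation planned over 12 livers and within each genotype are not given, because the livers fall into separate sets.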

Additional observations from a re-analysis of the deposited data

Results flagged for a closer look

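In 26 sets of 6 livers, a single liver standing far from the others was searched for (Dixon's test, critical value 0.625 for 6 samples). Of these sets 0 were flagged, where chance alone flags about 1 in 20. In each genotype, more than 1 liver stood apart in several clock genes. Livers that stand apart together can mask each other in a search for a single liver. The 0 therefore does not show that the livers were alike in clock state.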

How the results depend on the processing

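No clock gene was called in any of 20 other settings, over 199 values with a lowest adjusted p of 0.292, and counts of 0 in the other gene lists held apart from Kupffer cell markers (3 in DESeq2) and endothelial markers (1 in DESeq2 and 1 without LKO replicate 4). The number of genes called between genotypes moved from 75 to 114 without the filter on low counts, to 351 in DESeq2 and to 25 without replicates 1 and 2 of both genotypes, of which 19 were among the 75. With each liver left out it ranged from 38 (without WT replicate 5) to 132 (without WT replicate 3). The cause was not tested. Replicate numbers marked no shared litter or day in the labels, and same-numbered livers correlated at -0.0649 to 0.135 over all genes, best with their own number in 2 of 6 cases. With the replicate block 97 genes were called, 60 of them shared, and 0 clock genes. The block changed their standard errors, from 0.251 to 0.272 for *Per1*, 0.472 to 0.139 for *Arntl* (log2 fold change -0.09), 0.499 to 0.124 for *Per3* (0.17) and 0.454 to 0.0857 for *Dbp* (0.10), and for *Cry1* it gave -0.30 (interval -0.58 to -0.02, edgeR unadjusted p = 0.0401, adjusted p = 0.349). An unadjusted p under 0.05 occurred in 5 of the 199 values, 4 for *Cry1* and 1 for *Dbp*. That of *Dbp* came from the 8 livers set apart by the levels of *Dbp* and other clock genes. Signs of small changes turned: *Ciart* to 0.11 with the replicate block and 0.15 in limma voom, and *Npas2* to 0.07 without replicates 1 and 2 of both genotypes. With each liver left out, log2 fold changes ranged from -0.50 to 0.37 for *Arntl*, -0.92 to 0.46 for *Npas2*, -0.046 to 0.41 for *Per3*, -0.23 to 0.01 for *Nr1d1*, -0.022 to 0.37 for *Dbp* and -0.32 to 0.45 for *Ciart*, while *Per1*, *Per2*, *Cry1* and *Nr1d2* stayed negative. The genotype difference ranged from -0.79 to 0.45 in *Arntl* minus *Dbp* and from -0.26 to 0.35 in *Arntl* minus *Nr1d1*. Among the 8 livers, r of *Arntl* with *Dbp* ranged from -0.277 to 0.666 and with *Ciart* from -0.93 to -0.70. Depth limits *Npas2* most, at 3 reads in 1 liver.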

Other observations

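Stress and feeding genes were read beside the clock, since handling and meals also move liver transcripts. In 9 glucocorticoid-responsive genes, 8 temperature-responsive genes and 9 fasting-responsive genes, edgeR, limma voom and DESeq2 called 0 between genotypes. Their median log2 fold changes were -0.20, -0.05 and -0.10. An unadjusted edgeR p under 0.05, which 11.7% of all genes tested had, was found for 0, 1 and 1 of them. These were *Cirbp*, a cold-induced RNA-binding protein gene (17.3 ± 4.61 CPM in WT and 22.5 ± 3.21 in LKO, SD, n = 6 each, log2 fold change 0.38, SE 0.151, edgeR adjusted p = 0.331), and *Pdk4*, a kinase gene that restrains glucose oxidation (4.80 ± 1.46 and 9.88 ± 7.66 CPM, log2 fold change 1.06, SE 0.383, edgeR adjusted p = 0.279).

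Replicates 1 and 2 of both genotypes were the 4 highest livers for 1 glucocorticoid-responsive gene of 9 and 1 temperature-responsive gene of 8. They were the 4 highest for 1.78% of all genes tested. The genes were *Sgk1*, a glucocorticoid-induced kinase gene (21.34 to 32.5 CPM, against 9.96 to 21.26 CPM in the other 8), and *Rbm3*, a cold-induced gene (21.3 to 24.6 CPM against 14.6 to 19.8 CPM). *Cirbp*, also cold-induced, lay the other way with an overlap, at 12.65 to 19.4 CPM in the 4 livers and 15.3 to 25.8 CPM in the rest. None of the 9 fasting-responsive genes had these livers at either end. Since 1.97% of all genes had them as the 4 lowest and 1.78% as the 4 highest, 0 of 9 is near the share of genes at large. *Mt1* and *Mt2*, metallothionein genes, were at 146.5 to 651 CPM and 33.8 to 209.6 CPM in the 4 livers and at 20.9 to 191 CPM and 3.04 to 35.3 CPM in the other 8, so the sets overlapped. *Igfbp1*, a fasting-induced gene, was at 115.4 to 148.5 CPM in the 4 livers and 24.3 to 147.5 CPM in the rest. *Sgk1*, *Rbm3*, *Mt1*, *Mt2* and *Igfbp1* are named by their values. The part of these genes in the clock pattern was not tested.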
